A study of Mus musculus with 24 samples.

Results

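The response of bile duct cells to secretin in male dnTGFB mice was measured in 6 RNA-seq libraries, 3 titled dnTGFB secretin and 3 titled dnTGFB, of 24 libraries in the whole series. The members were taken by those titles and not by a cut on any measured value, although earlier results of these data were known. All 6 hold RNA of intrahepatic cholangiocytes, the epithelial cells of the bile ducts inside the liver, captured with an antibody and magnetic beads. Both groups carry the dnTGFB transgene, a TGF-β receptor II made dominant-negative (dnTGFBRII) that serves in the labels as a model of primary biliary cholangitis and that, in the line of this name, is driven by the CD4 promoter and so acts in T cells and not in the bile ducts. Treated mice received 4 µg of secretin per kg daily from osmotic minipumps in the abdomen for 8 weeks, beginning at 32 weeks of age and with a new pump after 1 month, and were killed at 40 weeks. Untreated mice carry the label none for treatment, and their age was not given in the sources used here, so that age and secretin cannot be told apart.

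For each group the cells of 6 to 8 mice were pooled, and 3 libraries were made from the pooled RNA. By this account the comparison sets 1 pool of mice against 1 other pool, and a p-value reflects how libraries of a group vary, not how mice vary. Untreated library 3 and WT library 1 lay far from their groups, as given below. Whether they came from the same pool as their groups was not tested. The genotype label contradicts the title for the untreated dnTGFB libraries, which it calls wild-type, and for the WT secretin libraries, to which it gives the transgene. By that label the comparison would set transgenic against wild-type mice. The titles match the series' own list of groups and were followed. The counts per gene do not separate the transgene from the endogenous Tgfbr2, so no value checks the genotype.

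Secretin is a peptide hormone of the small intestine. Its receptor, which in the liver is found on large cholangiocytes, raises cyclic AMP, and this second messenger opens the chloride channel CFTR. Chloride that leaves through CFTR is exchanged for bicarbonate by the anion exchanger AE2, encoded by Slc4a2, and the bicarbonate makes bile alkaline and protects the duct lining from bile acids. Primary biliary cholangitis is an autoimmune disease of the small bile ducts in which this secretion is impaired.

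The 6 libraries were uneven. Secretin-treated libraries held 24286275, 22201758 and 25295070 counts, while untreated libraries 1, 2 and 3 held 15225605, 19003320 and 1429218. The share of reads from all genes of the mitochondrial chromosome was 55.07%, 55.03% and 11.44% in the untreated libraries and 5.5%, 5.31% and 5.66% in the treated ones. After thinning to 1400000 counts, where a chi-square per gene of 1 is sampling noise, treated libraries differed from each other by 1.1 to 1.15 and untreated libraries 1 and 2 by 1.45. Untreated library 3 lay 78.59 and 78.33 from its own group, further than from the nearest treated library (51.34). The treated libraries were closer to WT libraries 2 and 3 (8.56 to 8.85) than to any untreated dnTGFB library, and WT library 1 was closer to untreated dnTGFB libraries 1 and 2 (7.6 and 7.21) than to its own group. Untreated library 3 also held heart muscle and neuronal transcripts, described below, so counts are given with and without it.

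Across the genes tested by edgeR's quasi-likelihood test, 4237 of 18777 (22.6%) passed an adjusted p of 0.05, of which 1900 (10.1%) rose and 2337 (12.4%) fell with secretin. Without untreated library 3, 7247 of 19400 genes passed (37.4%), 3677 higher (19.0%) and 3570 lower (18.4%). Of the genes called with all libraries, 3935 were called in the same direction without library 3 and 0 in the opposite direction. When the fit held only the 6 libraries, in place of all 12 male libraries, 506 genes passed (2.9%), 299 higher (1.71%) and 207 lower (1.19%). The main fit takes its estimate of the spread from the 12 male libraries, WT included.

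Levels below are CPM, a gene's reads relative to its library's total, after TMM scaling, an adjustment for the few genes that take up much of a library. In libraries where mitochondrial reads took over 55% of the counts, TMM-scaled CPM of the 13 mitochondrially encoded protein-coding genes alone sum to 964121 and 965468. Fold changes are fitted log2 values ± SE, secretin minus none.

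The 12 largest increases were led by Shh, Slpi, Slc26a3 and Car9. Shh encodes the sonic hedgehog ligand (chromosome 5, 28456815 to 28467256, minus strand, GRCm38). It stood at 0.92, 2.22 and 2.35 CPM in the untreated libraries and at 23.31, 23.76 and 23.28 CPM in the treated ones. Every treated library lay above every untreated library, and the log2 difference was 3.77 ± 0.34 (adjusted p 0.000117).

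Slpi, which encodes a secreted inhibitor of leukocyte proteases (chromosome 2, 164354070 to 164389095, minus strand), was the most abundant of the 12. It rose from 45.24, 43.73 and 65.19 CPM to 677.57, 716.47 and 657.16 CPM, a log2 difference of 3.75 ± 0.24 (adjusted p 1.98e-05). Library 3 was the highest of the untreated libraries and still far below the treated ones. Slc26a3, a chloride-bicarbonate exchanger of the gut epithelium (chromosome 12, 31390871 to 31473917, plus strand), stood at 1.15, 2.22 and 3.52 CPM without secretin and at 27.05, 26.22 and 26.69 CPM with it. Car9, a carbonic anhydrase of the cell surface (chromosome 4, 43506966 to 43513729, plus strand), stood at 2.89, 5.65 and 4.7 CPM against 53.68, 53.84 and 53.48 CPM. The log2 differences were 3.74 ± 0.33 (adjusted p 9.97e-05) and 3.61 ± 0.27 (adjusted p 3.86e-05), with no overlap of the groups.

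The other 8 were Gcnt3, a glycosyltransferase of mucin O-glycans, Etv4, an ETS transcription factor, Reg1, a secreted protein of the pancreas, Gpx2, a glutathione peroxidase of epithelia, the membrane mucin Muc3, the cargo adaptor gene Bicdl2, the sulfotransferase gene Sult1c2 and the trypsinogen Try5. Their log2 differences ran from 3.60 ± 0.60 for Gcnt3 to 3.08 ± 0.44 for Try5. Muc3 stood at 10.39, 10.75 and 6.46 CPM without secretin and at 87.83, 86.28 and 82.57 CPM with it. Etv4 stood at 0.81, 0.74 and 3.52 CPM against 15.55, 13.6 and 13.14 CPM, so its untreated values rest on 7, 8 and 6 reads. In all 12 the lowest treated library lay above the highest untreated one, which the rule that chose them required.

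**Figure D1:**
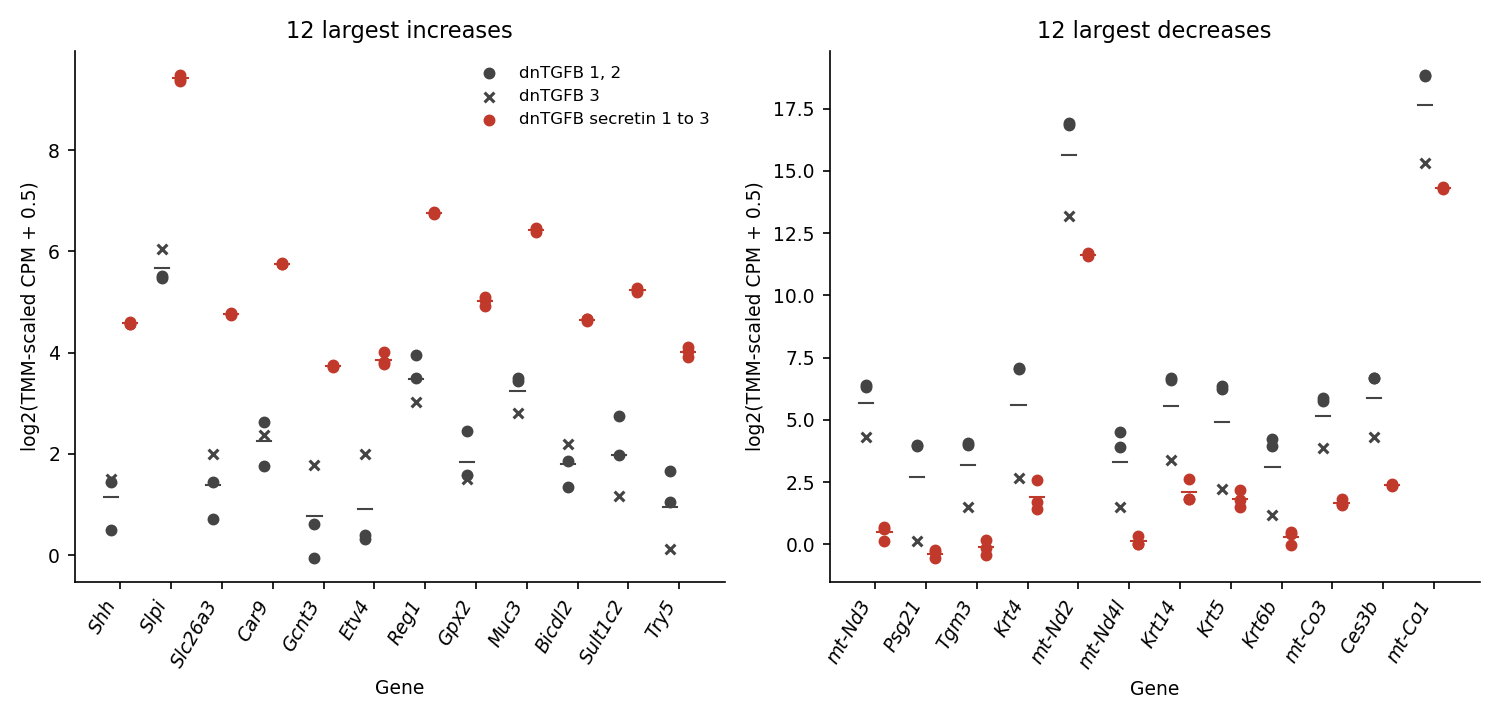
Levels of the 12 largest increases (left) and 12 largest decreases (right) in each library, as log2(TMM-scaled CPM + 0.5); grey points are untreated dnTGFB libraries 1 and 2, crosses untreated library 3, red points the treated libraries and short lines group means of the log values. Treated libraries lie close together, for instance at 677.57, 716.47 and 657.16 CPM for Slpi, while for each of the decreases the cross lies between the other untreated libraries and the treated ones.

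Genes of biliary epithelial identity rose together. Of 30 such genes tested 28 rose and 0 fell, with a median log2 difference of 1.99, beside 10.1% of all genes called higher and a median of -0.05 over all genes. Without untreated library 3, 28 rose and 1, the hepatobiliary transcription factor gene Onecut1 (-1.11), fell, with a median of 1.79. In that fit 19.0% of all genes rose and 18.4% fell. With 1 treated library left out at a time 24 to 25 passed, and with only the 6 libraries in the fit 14 passed. Fewer cells of a type and less RNA per cell cannot be told apart in these bulk samples, for this list or any other.

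Krt19, the keratin that marks bile duct cells, stood at 85.17, 96.26 and 45.81 CPM in untreated and at 361.25, 369.23 and 351.75 CPM in treated libraries. Epcam, an adhesion molecule of epithelia, stood at 56.89, 55.59 and 34.06 CPM against 306.11, 299.69 and 297.17 CPM. Both showed a gap between the groups many times wider than the spread within the treated one, with log2 differences of 2.24 ± 0.29 (adjusted p 0.000859) and 2.61 ± 0.25 (adjusted p 0.000136). Spp1, encoding the secreted osteopontin, was the most abundant of those named here, at 556.13, 550.96 and 418.76 CPM against 3381.04, 3301.18 and 3324.53 CPM. The tight junction gene Cldn7 gave the highest fold change of the list, from 30.47, 28.16 and 19.97 CPM to 219.02, 217.1 and 210.53 CPM (3.02 ± 0.25, adjusted p 6.64e-05). Wfdc2, a secreted protease inhibitor, and Dmbt1, a mucosal scavenger glycoprotein, rose by 2.80 and 2.65 on the log2 scale. The transcription factors Sox9 (2.09), Elf3 (2.54) and Grhl2 (1.79) also rose.

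Summed over the 30 genes, the biliary list stood at 2757, 2798 and 1432 CPM in the untreated libraries and at 11471, 11363 and 11241 CPM in the treated ones. Hepatocyte markers moved the other way, at 38059, 36299 and 5570 CPM against 6138, 6126 and 6062 CPM. Untreated library 3 thus had both the lowest biliary sum and a hepatocyte sum below that of the treated libraries. A refit without the genes of the mitochondrial chromosome called 4330 of 19060 genes, 2071 higher and 2259 lower. What part the change in hepatocyte and mitochondrial reads has in the biliary increase was not tested beyond that refit.

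Barrier genes rose beside them. Of 21 tight junction and polarity genes tested, 12 rose and 1 fell (median 1.15), beside 10.1% and 12.4% of all genes. Without untreated library 3, 17 rose and 1 fell, beside 19.0% and 18.4% of all genes. The pore-forming claudin Cldn2 stood at 30.12, 23.62 and 14.68 CPM against 108.28, 107.58 and 96.4 CPM (2.15 ± 0.23, adjusted p 0.000238). Cldn23 (2.70 ± 0.42) and Cldn8 (2.33 ± 0.32) rose as well, both from under 3 CPM. Cldn1, the exception, stood at 11.54, 7.41 and 1.17 CPM without secretin and at 1.19, 1.05 and 1.58 CPM with it (-2.51 ± 0.78, adjusted p 0.0409), and library 3 was at the treated level. Its call was lost when any of the 3 treated libraries, or untreated library 1 or 2, was left out. The 12 increases became 10 with each treated library left out and 4 with only the 6 libraries in the fit.

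Promoter sequences are shown for Cldn7, the biliary gene of highest fold change, and for Epcam, the surface marker of these cells. They are RefSeq windows on GRCm38.p6 from 250 bases before to 50 bases after a start. Capitals mark a match to TGACGTCA, the cAMP response element that the factor CREB binds after cyclic AMP rises. The Cldn7 window lies at chr11:69965171-69965470 and the Epcam window at chr17:87635729-87636028, both on the plus strand.
Cldn7: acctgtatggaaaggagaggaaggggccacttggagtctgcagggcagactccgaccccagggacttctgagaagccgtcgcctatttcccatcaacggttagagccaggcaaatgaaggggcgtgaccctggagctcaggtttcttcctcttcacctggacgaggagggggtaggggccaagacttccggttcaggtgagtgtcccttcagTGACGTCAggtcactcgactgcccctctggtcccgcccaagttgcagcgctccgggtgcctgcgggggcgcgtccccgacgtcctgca
Epcam: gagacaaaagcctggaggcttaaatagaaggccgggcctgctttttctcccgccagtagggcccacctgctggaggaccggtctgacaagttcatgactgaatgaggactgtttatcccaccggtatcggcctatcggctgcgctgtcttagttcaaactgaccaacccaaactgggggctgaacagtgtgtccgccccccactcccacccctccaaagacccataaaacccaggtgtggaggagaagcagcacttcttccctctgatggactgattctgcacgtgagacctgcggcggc

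The Cldn7 match begins 38 bases before the start, and the other Cldn7 window and the Epcam window hold none. TGACGTCA was found, on both strands, in 2.62% of 1562 promoter windows of genes called higher with and without library 3, in 1.82% of 1975 windows of genes called lower, and in 2.68% of 16565 windows of all genes tested. AACCNGTT, the site of grainyhead-like factors such as Grhl2, was found in 1.73%, 1.87% and 1.9% of the same windows. The share for genes called higher was thus close to that of all genes for both motifs. Of the 12 largest increases 7 had a window, and 0 of these 7 windows held either motif. Matches to the 2 motifs overlapped in 0 of the 32851 windows of all RefSeq genes. A match is letters in a window and no evidence of binding.

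Genes of the secretin pathway moved in both directions. Of 30 genes for secretin signalling and bicarbonate secretion, 8 rose and 6 fell (median 0.25), and 9 rose and 7 fell without untreated library 3 (median 0.03). The shares, 8 and 6 of 30, stood above the 10.1% and 12.4% of all genes. Without library 3 the 9 and 7 of 30 stand beside 19.0% and 18.4% of all genes. With 1 treated library left out, 5 to 6 rose and 1 fell, and with only the 6 libraries 3 rose and 1 fell.

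Sctr, the secretin receptor (chromosome 1, 120006894 to 120063536, plus strand), stood at 1.73, 2.13 and 1.76 CPM without secretin and at 12.83, 13.16 and 11.28 CPM with it. The groups did not overlap and the log2 difference was 2.70 ± 0.63 (adjusted p 0.0165), although the untreated values rest on 15, 23 and 3 reads. The call was lost when treated library 1 or 2 was left out. Sct, the hormone's own gene (chromosome 7, 141278330 to 141279133, minus strand), was near the floor of detection at 0.69, 1.67 and 0.59 CPM against 0.17, 0.25 and 0.19 CPM. It fell by 2.39 on the log2 scale (SE 0.53, adjusted p 0.0136), with 6, 18 and 1 reads behind the untreated values, and lost its call when any 1 treated library, or untreated library 2, was left out.

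Cftr, the chloride channel (chromosome 6, 18170687 to 18322768, plus strand), stood at 3.69, 3.52 and 0 CPM without secretin and at 17.14, 15.22 and 16.17 CPM with it. The groups did not overlap, with a log2 difference of 2.46 ± 0.46 (adjusted p 0.0068) and of 2.18 without library 3, which held no read of the gene. Slc4a2, the exchanger that works with it (chromosome 5, 24423837 to 24440950, plus strand), differed little, at 37.62, 40.21 and 24.08 CPM against 46.05, 45.92 and 46.27 CPM. The difference of 0.41 ± 0.17 did not pass (adjusted p 0.0953), and without library 3 it was 0.25 (adjusted p 0.0356).

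Other carriers and enzymes of this pathway followed with called increases: the sodium-bicarbonate cotransporter Slc4a4 (2.18), the carbonic anhydrase Car2 (2.18), the sodium-proton exchanger Slc9a3 (2.44), the potassium channel Kcnn4 (1.76), the cotransporter Slc12a2 (0.83) and the adenylyl cyclase Adcy6 (0.54). The decreases, besides Sct, were the adenylyl cyclases Adcy5 (-1.70) and Adcy9 (-2.13), the cyclic AMP sensor Rapgef4 (-2.32), the anion exchanger Slc26a6 (-0.73) and the potassium channel Kcnn2 (-1.74). Kcnn2 did not pass without untreated library 3 (adjusted p 0.0544), and Adcy5 fell by 0.71 there. Genes named in these sentences by pathway role were chosen after their values were seen. Of 7 biliary bile acid genes tested 1 was called, and 2 without library 3, beside 22.6% and 37.4% of all genes. With all libraries it was Slc10a2, the bile acid uptake carrier of the duct cell's apical face, at 6.69, 8.52 and 2.35 CPM against 20.79, 21.95 and 23.53 CPM (1.77 ± 0.29, adjusted p 0.00335).

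Mucus and defence genes rose in part. Of 15 tested genes for mucins, trefoil factors and mucosal defence 5 rose and 0 fell (median 0.89), beside 10.1% of all genes higher. Without untreated library 3, 8 rose, beside 19.0% of all genes. Tff2, a trefoil peptide that stabilises mucus, stood at 5.08, 4.08 and 4.7 CPM against 31.43, 34.64 and 32.09 CPM (2.83 ± 0.17, adjusted p 1.3e-05). Agr2, a protein disulfide isomerase needed for mucin folding, stood at 0.35, 0.09 and 0 CPM against 3.45, 3.94 and 3.54 CPM, and the fitted 4.23 ± 0.81 depends on these few untreated reads. Galnt3, which begins mucin O-glycosylation, rose by 2.12 (SE 0.28), from 4.04, 3.52 and 1.76 CPM to 14.92, 14.75 and 14.44 CPM. The 5 calls became 4 to 5 with a treated library left out.

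Pancreatic acinar enzyme genes, whose products the exocrine pancreas secretes, rose as a group. Of 18 genes tested 13 rose and 0 fell (median 2.59), beside 10.1% of all genes higher. Without untreated library 3, 14 rose (median 2.45), beside 19.0% of all genes. In all 18 the treated libraries lay above the untreated ones, beside 22.8% of all genes with such a separation. Ctrb1, a chymotrypsinogen, stood at 21.58, 19.27 and 22.32 CPM against 174.95, 184.45 and 166.87 CPM (3.07 ± 0.18, adjusted p 1.3e-05). Reg1 stood at 14.89, 10.75 and 7.64 CPM against 106.19, 108.66 and 107.14 CPM (3.22 ± 0.43, adjusted p 0.00105). Sycn, a zymogen granule protein, stood at 1.38, 0.09 and 0.59 CPM against 6.86, 5.03 and 5.18 CPM (3.04 ± 0.79), a call lost when any treated library was left out. The sum of the list was 95.21, 85.98 and 55.79 CPM against 509.95, 518.6 and 492.31 CPM. With 1 treated library left out, 7 to 8 genes passed.

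Macrophage genes rose. Of 20 markers of macrophages and Kupffer cells, the resident macrophages of the liver, 13 rose and 0 fell (median 1.22). Among all genes 10.1% rose, and 19.0% rose and 18.4% fell without untreated library 3. In that fit 16 of the markers rose and 1, the heme oxygenase Hmox1, fell. Cd5l, a secreted protein of tissue macrophages, stood at 41.89, 44.19 and 17.03 CPM against 172.87, 171.61 and 173.7 CPM (2.29 ± 0.29, adjusted p 0.000819). Clec4f, a lectin found on Kupffer cells, stood at 33.24, 31.68 and 16.44 CPM against 127.11, 132.24 and 125.49 CPM (2.21 ± 0.26, adjusted p 0.000459). The complement gene C1qa stood at 37.62, 34.56 and 32.89 CPM against 143.86, 153.72 and 137.72 CPM (2.05 ± 0.18, adjusted p 8.94e-05). Timd4, a receptor for dying cells, rose by 1.81 (SE 0.32). The sum of the list was 1211, 1280 and 390 CPM against 1999, 1991 and 1970 CPM. With 1 treated library left out 10 to 11 passed, and with only the 6 libraries 6.

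Of 10 MHC class II presentation genes tested 7 rose and 0 fell (median 1.29), beside 10.1% and 12.4% of all genes. Without untreated library 3, 7 rose and 1 fell (median 0.90), beside 19.0% and 18.4% of all genes. Ctss, a protease of antigen presentation, stood at 35.43, 38.26 and 27.02 CPM against 124, 129.05 and 118.7 CPM (1.87 ± 0.19, adjusted p 0.000181). H2-Ab1, a class II chain, stood at 237.85, 253.66 and 66.37 CPM against 460.25, 481.03 and 462.93 CPM (1.32 ± 0.39, adjusted p 0.0324) and at a difference of 0.94 without library 3. The invariant chain gene Cd74 (1.31) and the peptide-loading gene H2-DMb1 (1.40) also rose. With any 1 treated library left out, only 1 of the 7 passed.

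Genes of B lineage cells moved in both directions. Of 17 markers tested 3 rose and 6 fell (median -0.54), beside 10.1% and 12.4% of all genes. Without untreated library 3 the counts were also 3 and 6, beside 19.0% and 18.4% of all genes. The increases were Jchain and Mzb1, genes of antibody-secreting plasma cells, and Cd79a, a part of the B cell receptor. Jchain stood at 53.89, 56.88 and 47.57 CPM against 336.81, 329.96 and 328.06 CPM (2.65 ± 0.20, adjusted p 3.13e-05), and Mzb1 rose by 2.46 (SE 0.29, adjusted p 0.000459). The decreases included Pax5, the transcription factor of B cell identity, at 11.42, 8.8 and 1.17 CPM against 1.33, 1.52 and 1.17 CPM (-2.59 ± 0.43, adjusted p 0.00351), and Fcer2a, a surface receptor of mature B cells, at 5.31, 2.87 and 0 CPM against 0.7, 0.58 and 0.41 CPM. For both genes untreated library 3 was at or below the treated libraries. With a treated library left out 2 rose and 1 to 3 fell.

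Of 25 T cell markers 0 rose and 7 fell (median -1.30), beside 12.4% of all genes called lower, and 17 fell without untreated library 3, beside 18.4%. Of 19 cytotoxic and NK cell markers 3 fell, a share close to that of all genes, and 10 fell without library 3. Cd8a, the coreceptor of cytotoxic T cells, stood at 11.08, 13.43 and 0.59 CPM against 2.09, 1.37 and 1.8 CPM (-2.38 ± 0.76, adjusted p 0.0451). Trbc2, a constant segment of the T cell receptor, stood at 9.58, 11.3 and 30.54 CPM against 3.15, 3.94 and 4.45 CPM (-2.07 ± 0.56, adjusted p 0.0255). Library 3 was thus below the treated libraries for one and highest of all for the other. Cd6, a T cell surface protein, stood at 2.08, 1.95 and 0.59 CPM against 0.17, 0.07 and 0.22 CPM (-3.44 ± 0.72). Prf1, the pore protein perforin (-3.56 ± 0.89), and Cxcr3, a chemokine receptor of T cells (-3.17 ± 0.62), were not detected in library 3. The list sums were 133.87, 152.03 and 97.49 CPM against 53.11, 54.06 and 53.44 CPM for T cells. With a treated library left out, 0 to 1 T cell marker passed.

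Among 28 cytokines and chemokines tested 6 rose and 1 fell (median 0.19), beside 10.1% and 12.4% of all genes. Without untreated library 3, 11 rose and 6 fell, beside 19.0% and 18.4% of all genes. Il10, a cytokine that restrains inflammation, stood at 7.62, 7.78 and 4.11 CPM against 23.27, 23.68 and 23.25 CPM (1.76 ± 0.22, adjusted p 0.00068). Tnf, an inflammatory cytokine, stood at 70.63, 57.44 and 14.1 CPM against 135.8, 129.52 and 126 CPM (1.42 ± 0.39, adjusted p 0.0262). Ccl20 reached 1.66, 2.17 and 2.21 CPM from 0.81, 0.09 and 0 CPM. With any treated library left out 1 of the 6 increases passed.

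Hepatocyte genes fell. Of 30 hepatocyte markers 0 rose and 14 fell (median -2.01), beside 12.4% of all genes. Without untreated library 3, 24 fell (median -2.42), beside 18.4% of all genes. Alb, albumin, stood at 13329, 12808 and 1594 CPM against 1820, 1805 and 1821 CPM, and with library 3 below the treated libraries the difference of -2.35 ± 0.79 did not pass (adjusted p 0.0529). Without library 3 it was -2.84 (adjusted p 0.016). Mup3, a major urinary protein made by hepatocytes, fell by 2.71 (SE 0.19, adjusted p 2.49e-05), from 320.01, 230.22 and 315.98 CPM to 42.27, 44.95 and 44.7 CPM, so that for this gene library 3 was at the level of its group. Serpina3k, a protease inhibitor of plasma (-2.63 ± 0.60), Tdo2, a tryptophan-degrading enzyme (-2.36 ± 0.42), and Apob, the apolipoprotein of liver lipoproteins (-2.50 ± 0.78), fell as well. With a treated library left out 4 of the 14 passed, and 10 with untreated library 1 or 2 left out. Hepatocyte sums also differed among untreated WT libraries 1, 2 and 3, at 23009, 5024 and 4987 CPM. Mup3 did not follow that split, at 223.42, 252.18 and 231.85 CPM.

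Genes by which hepatocytes make and export bile acids fell in 12 of 19 cases (median -2.01), beside 12.4% of all genes, and 0 rose. Without untreated library 3, 15 fell (median -2.17), beside 18.4% of all genes. Slc10a1, the bile acid uptake carrier of hepatocytes, stood at 41.66, 43.54 and 9.98 CPM against 4.84, 4.59 and 5.37 CPM (-2.74 ± 0.57, adjusted p 0.0105). Abcb11, the bile salt export pump, stood at 92.32, 75.69 and 18.79 CPM against 10.97, 10.02 and 9.95 CPM (-2.63 ± 0.67, adjusted p 0.0208). Cyp8b1, an enzyme of cholic acid synthesis, stood at 12.93, 5.56 and 17.03 CPM against 2.06, 1.84 and 1.83 CPM (-2.55 ± 0.34, adjusted p 0.000991). Abcb4, the phospholipid exporter, fell by 2.55 (SE 0.51). With 1 treated library left out 3 to 4 of the 12 passed, and 6 with untreated library 1 or 2 left out. Of 11 hepatocyte genes that are higher in males 8 fell and 1, Cyp4a12a, rose (1.88), and the counts were 8 and 1 without library 3 too. Serpina1e fell by 3.70 (SE 0.53, adjusted p 0.00146), from 1019.25, 863.83 and 222.59 CPM to 51.36, 60.97 and 49.46 CPM, and Mup20 by 2.41 (SE 0.23). The fall was not particular to these genes. Of 4 tested hepatocyte genes that are higher in females 2 fell and 0 rose in both fits. The medians were -2.62 for the female-biased and -2.31 for the male-biased list.

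All 13 mitochondrially encoded protein-coding genes fell, beside 12.4% of all genes, with a median of -3.90 and of -4.32 without untreated library 3. mt-Co1, a subunit of cytochrome oxidase, stood at 462770, 472210 and 40533 CPM against 20404, 19656 and 20861 CPM (-4.00 ± 1.04, adjusted p 0.0222). mt-Nd2, a subunit of respiratory complex I, stood at 122150, 117767 and 9293 CPM against 3209, 3043 and 3290 CPM (-4.71 ± 1.10, adjusted p 0.0169). In each of these genes library 3 lay between the groups. Untreated WT libraries 1, 2 and 3 also differed, with the 13 genes summing to 603560, 85021 and 86081 CPM. mt-Nd3, mt-Nd4l and mt-Co3 also fell by 6.07, 4.54 and 4.01, but from at most 83.66 CPM. Whether reads they share with near-identical nuclear copies were counted elsewhere was not tested. With 1 treated library left out 3 of the 13 passed, and by DESeq2 with all libraries 7 passed. The 29 nuclear genes of the respiratory chain tested gave 0 calls by edgeR, with a median of -0.77. Without library 3, 11 were higher and 1 lower (median 0.14), beside 19.0% and 18.4% of all genes. DESeq2 with all libraries called 0 higher and 6 lower.

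**Figure D2:**
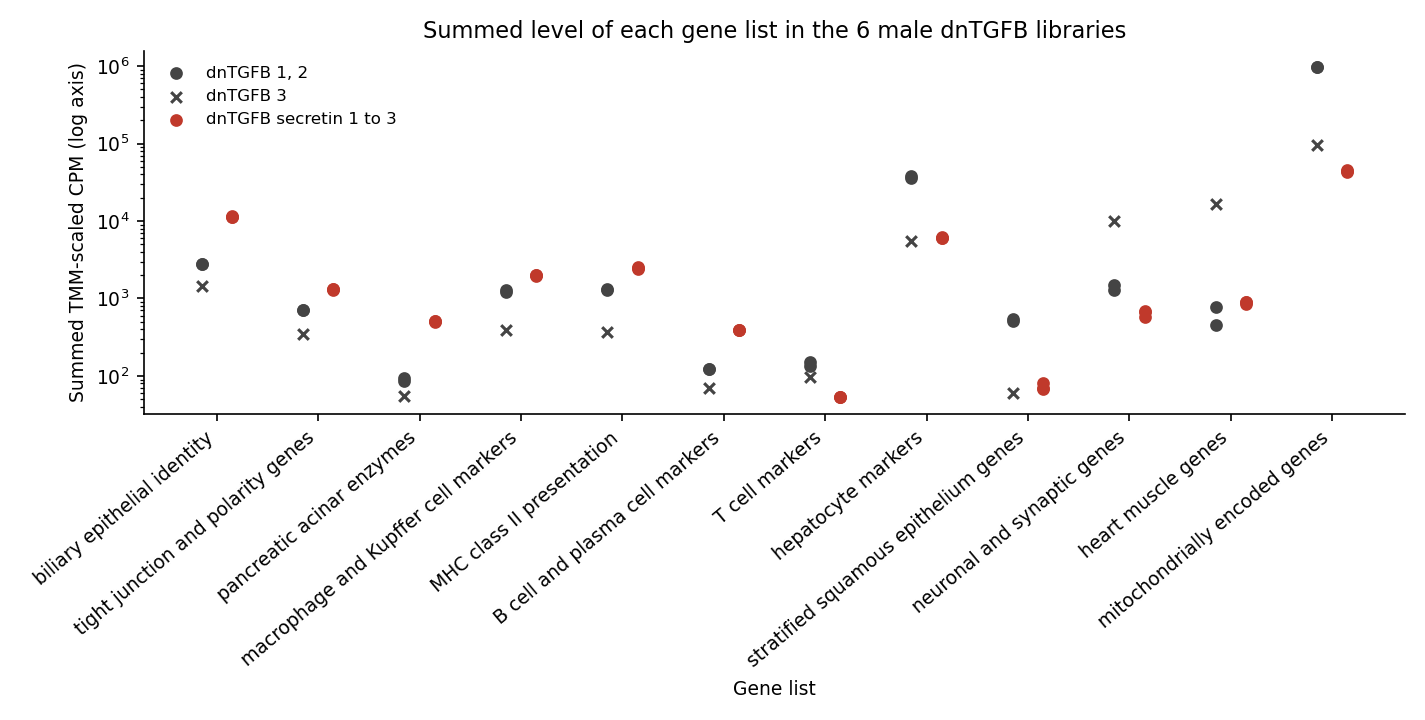
Summed TMM-scaled CPM (log axis) of 12 gene lists in the 6 libraries; grey points are untreated libraries 1 and 2, crosses untreated library 3 and red points the treated libraries. The red points lie above all others for the biliary list (11241 to 11471 CPM), and the cross stands apart for heart muscle (16358 CPM) and neuronal genes (10058 CPM).

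Genes of tissues outside the liver also differed. Stratified squamous epithelium, which lines skin and oesophagus, was represented by 12 genes, of which 8 fell and 2 rose (median -3.47). The counts were the same without library 3 (median -3.66). Among all genes 12.4% fell and 10.1% rose, and 18.4% and 19.0% without library 3. Krt4 stood at 129.25, 133.87 and 5.87 CPM against 5.57, 2.17 and 2.72 CPM (-4.72 ± 1.11, adjusted p 0.0169), and Krt14, a keratin of basal cells, at 96.59, 102.19 and 9.98 CPM against 5.74, 3.04 and 3.03 CPM (-4.18 ± 0.92, adjusted p 0.0136). Krt5 and Krt13 fell by 4.15 and 4.51 on the log2 scale. Krt6b and the epidermal transglutaminase gene Tgm3, outside the list but among the 12 largest decreases, gave -4.07 and -4.79. The 2 increases were Sprr1a (1.42) and Ivl (1.95), envelope precursors of squamous cells. Psg21, a glycoprotein gene of the placenta, stood at 15.23, 15.1 and 0.59 CPM against 0.3, 0.18 and 0.35 CPM (-5.30 ± 1.03, adjusted p 0.00778). In the genes of this paragraph that fell, untreated library 3 was nearer to the treated libraries than to untreated libraries 1 and 2, and with 1 treated library left out 0 squamous genes passed. The WT libraries without secretin were split as well. Their squamous sums were 508.83, 127.03 and 89.15 CPM in WT libraries 1, 2 and 3. What causes such splits within a group was not tested.

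Neuronal and heart transcripts followed untreated library 3. Of 20 neuronal and synaptic genes 18 fell (median -2.71), beside 12.4% of all genes. Without library 3, 18 fell too, beside 18.4% of all genes, but with a median of -1.07. Syn1, a synaptic vesicle protein, stood at 40.16, 43.73 and 388.21 CPM against 17.9, 19.78 and 21.86 CPM (-2.95 ± 0.72, adjusted p 0.0193) and fell by 1.07 without library 3. Nefm, Slc17a7 and Gap43 gave -3.04, -2.95 and -2.90 with library 3 and -1.29, -1.07 and -1.32 without it. With a treated library left out 0 to 1 of the 20 passed. Of 17 heart muscle genes 0 passed in either fit, and the list's sum was 454, 770 and 16358 CPM against 908, 849 and 908 CPM, so that its median turned from -2.84 to 0.54 without library 3. Of 11 skeletal muscle genes 7 fell, and 6 without library 3, beside 12.4% and 18.4% of all genes. Among them were Acta1, at 18.81, 28.35 and 88.68 CPM against 3.12, 3.58 and 4.33 CPM (-3.56 ± 0.63, adjusted p 0.00477), and Myh1 (-4.67 ± 0.74). Xist, the RNA of the inactive X chromosome, stood at 7.96, 10.1 and 1.17 CPM in the untreated libraries and at 0.17, 1.05 and 0.92 CPM in the treated ones, although all are titled male.

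Ces3b, a carboxylesterase of the liver, was the remaining gene among the 12 largest decreases. It stood at 102.94, 100.8 and 19.38 CPM against 4.71, 4.92 and 4.58 CPM (-4.01 ± 0.65, adjusted p 0.00311), with library 3 between the other untreated libraries and the treated ones.

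The counts of TGF-β, matrix, stress and metabolic genes stand beside 10.1% of all genes higher and 12.4% lower, and 19.0% and 18.4% without library 3. Of 25 TGF-β ligands, receptors and targets 4 rose and 0 fell (median 0.26), and 6 rose and 6 fell without library 3. The integrin genes Itgb8 and Itgb6, whose products release TGF-β from its latent form, rose by 1.27 (SE 0.18, adjusted p 0.00124) and 1.15 (SE 0.28, adjusted p 0.0195). The receptor gene Tgfbr1 rose by 0.70 (SE 0.21, adjusted p 0.0354). Tgfbr2 stood at 122.67, 125.72 and 37 CPM against 108.45, 109.35 and 119.43 CPM, and the groups overlapped (0.22 ± 0.33, adjusted p 0.657; -0.13 without library 3). With a treated library left out 1 to 2 of the 4 passed.

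Of 26 matrix genes 1 rose, the laminin gene Lamb1 (0.79 ± 0.16), and 1 fell, while without library 3 2 rose and 11 fell. Of 18 stellate cell and fibroblast markers 3 fell, and 10 without library 3. Acta2, the actin of activated stellate cells, stood at 67.4, 65.41 and 39.94 CPM against 28.15, 29.9 and 25.65 CPM (-1.06 ± 0.20, adjusted p 0.00658). Thy1, a marker of portal fibroblasts and also of neurons, stood at 49.51, 51.14 and 297.18 CPM against 26.99, 27.66 and 29.47 CPM. It fell by 2.21 with library 3 and by 0.83 without it.

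Of 22 senescence and p53 target genes 2 rose and 1 fell, and 4 rose and 8 fell without library 3. Cdkn1a, the cell cycle inhibitor p21, stood at 322.67, 304.71 and 62.84 CPM against 200.95, 204.56 and 192.87 CPM. The treated libraries lay between the untreated ones, so the difference was -0.21 ± 0.43 (adjusted p 0.747), and without library 3 it was -0.64 (adjusted p 3.49e-06). Trp53inp1 (1.38) and Gadd45a (1.05), both p53 targets, rose and Phlda3 (-0.77) fell. Of 14 VEGF and angiopoietin genes 1, Vegfa, rose with all libraries (0.76 ± 0.17, adjusted p 0.0153), and 5 rose and 3 fell without library 3.

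Of 27 immediate-early and heat shock genes, which respond to cell isolation, 0 rose and 3 fell, and 11 rose and 10 fell without library 3. The 3 were Egr3 (-2.24 ± 0.36), Hsph1 (-1.47 ± 0.22) and Hsp90aa1 (-0.80 ± 0.18). Of 18 glycolysis genes 6 fell, a share above the 12.4% of all genes, and 1 rose and 10 fell without library 3. Among the 6 was Gapdh, at 694.73, 673.44 and 2154.27 CPM against 410.95, 415.22 and 419.38 CPM (-1.50 with and -0.71 without library 3), and with any treated library left out 0 of the 18 passed. Of 21 Notch and YAP genes 4 rose and 3 fell (7 and 6 without library 3), with the Notch ligand Dll1 up by 1.47 and the ligand Jag2 and the target Hey1 down by 1.29 and 1.56 (SE 0.36, 0.23 and 0.33). The unfolded protein response gave 4 increases and 1 decrease of 20 (10 and 4 without library 3), with Atf4 (1.01), Manf (0.91) and Creld2 (1.17) higher. Sterol synthesis gave 4 increases and 2 decreases of 23 (4 and 9 without library 3), among them Cyp51 (0.75), and 0 passed with any treated library left out. DNA replication and mitosis gave 2 increases of 25, Mcm6 (1.01) and Mcm4 (0.82), and 4 increases and 2 decreases without library 3. Ribosomal proteins gave 6 increases of 33, Rps24 among them (0.75), and 18 without library 3.

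**Figure D3:**
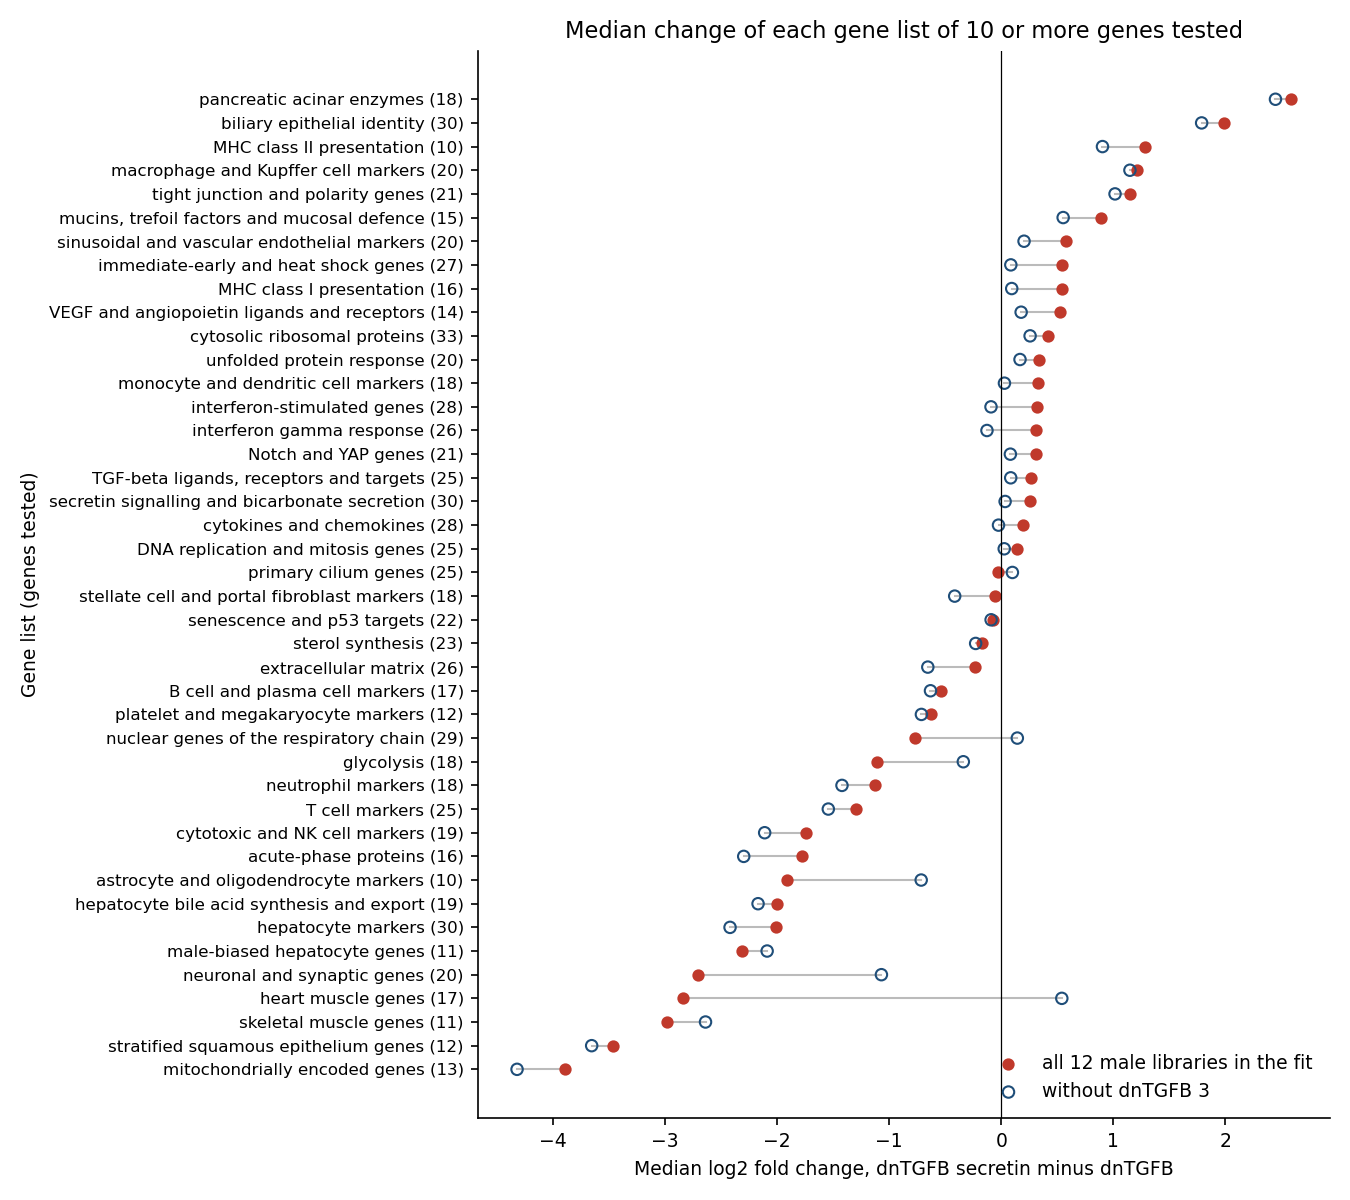
Median fitted log2 difference of each gene list with 10 or more genes tested; red points use all 12 male libraries, open points leave out untreated dnTGFB library 3, and grey lines join the same list. The biliary median stays high (1.99 and 1.79), whereas heart muscle moves from -2.84 to 0.54 and neuronal genes from -2.71 to -1.07.

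The remaining immune and vascular lists are set beside 22.6% of all genes called, and 37.4% without library 3. Interferon-stimulated genes gave 2 increases of 28, the interferon gamma response 1 increase and 1 decrease of 26, MHC class I presentation 1 increase of 16, and monocyte and dendritic cell markers 4 increases and 1 decrease of 18. Without library 3 the increases and decreases were 4 and 3, 6 and 6, 6 and 2, and 6 and 6 for these lists. Platelet markers gave 1 increase and 3 decreases of 12 in both fits. Endothelial (20), neutrophil (18), acute-phase (16), cilium (25), erythroid (7) and mast cell (4) genes gave 0 calls by edgeR with all libraries. Without untreated library 3 the endothelial list gave 9 increases and 1 decrease, the neutrophil list 4 decreases, the cilium list 3 increases and the other 3 lists 0 calls, and by DESeq2 with all libraries the 6 lists gave 2, 1, 0, 0, 3 and 0 calls. The acute-phase median was -1.78, and its sum stood at 17112, 16702 and 1067 CPM against 3645, 3622 and 3547 CPM, with library 3 below the treated libraries.

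Secretin was given to WT mice as well, so the difference between its effects in the 2 genotypes, as titled, was tested. Untreated WT mice were 32 and treated WT mice 40 weeks old, so in WT too age and secretin cannot be told apart. Xist, near 0 in WT libraries at 0.89, 1.02 and 1.45 CPM, stood at 35.14, 37.39 and 30.13 CPM in the WT secretin libraries, although these are titled male and hold Y-linked Ddx3y at 68.26 to 72.08 CPM. The change of Xist in WT was 4.92 (adjusted p 0.00137) and its difference between genotypes -8.26 (adjusted p 0.000448), and its part in the other differences was not tested. In WT males 1168 genes passed (6.22%), 666 higher (3.55%) and 502 lower (2.67%), and the difference between genotypes passed for 2931 of 18777 genes (15.6%), 1521 with a more positive effect in dnTGFB (8.1%) and 1410 with a more negative one (7.51%). Of the 12 largest increases 11 differed between genotypes, with differences from 2.85 for Reg1 to 4.30 for Gcnt3, and Try5 did not (-0.74, adjusted p 0.41), since it rose in WT too (3.82). These 12 genes were chosen for a large difference in dnTGFB, which is itself part of the difference between genotypes. Large positive values were thus likely from the start, and the 11 are no separate check. Krt19 and Epcam, higher in dnTGFB with secretin, gave -0.35 and -0.53 in WT, and the differences of 2.59 and 3.14 passed (adjusted p 0.00311 and 0.000494). Sctr (1.23, adjusted p 0.318) and Cftr (1.73, adjusted p 0.0758) did not pass this test, which does not show that their responses were alike. Without WT library 1 the difference was -0.07 for Sctr and 1.43 for Cftr (adjusted p 0.916 and 0.128), and 2.81 for Krt19 and 3.35 for Epcam (adjusted p 0.00164 and 0.000283).

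Of the 30 hepatocyte markers, 14 of which fell in dnTGFB, 1 rose and 1 fell in WT (median 0.44), and for 13 the effect was more negative in dnTGFB, beside 7.51% of all genes. Mup3 gave -2.71 in dnTGFB and 1.79 in WT (adjusted p 0.000507), a difference of -4.51 (adjusted p 2.12e-05) and of -4.45 without WT library 1. Apob gave -2.50 in dnTGFB, and its 1.40 in WT did not pass (adjusted p 0.327). WT library 1 held Apob at 343.2 CPM and WT libraries 2 and 3 at 57.62 and 60.03 CPM, against 409.28, 404.78 and 398.37 CPM with secretin. The difference between genotypes was -3.89 for Apob (adjusted p 0.0354) and -5.27 without WT library 1 (adjusted p 0.00515). Tdo2, which fell in dnTGFB, gave 0.005 in WT (adjusted p 0.997). Acta2 gave -1.06 and 0.53, the latter not passing (adjusted p 0.143), with a difference of -1.59 (adjusted p 0.00553). Leaving out WT library 1, which resembled the untreated dnTGFB libraries, left 3333 differences between genotypes, leaving out dnTGFB library 3 gave 7324, and leaving out both gave 9380. Leaving out any other WT or WT secretin library gave 1267 to 1381, and any dnTGFB secretin library 1149 to 1188.

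**Figure D4:**
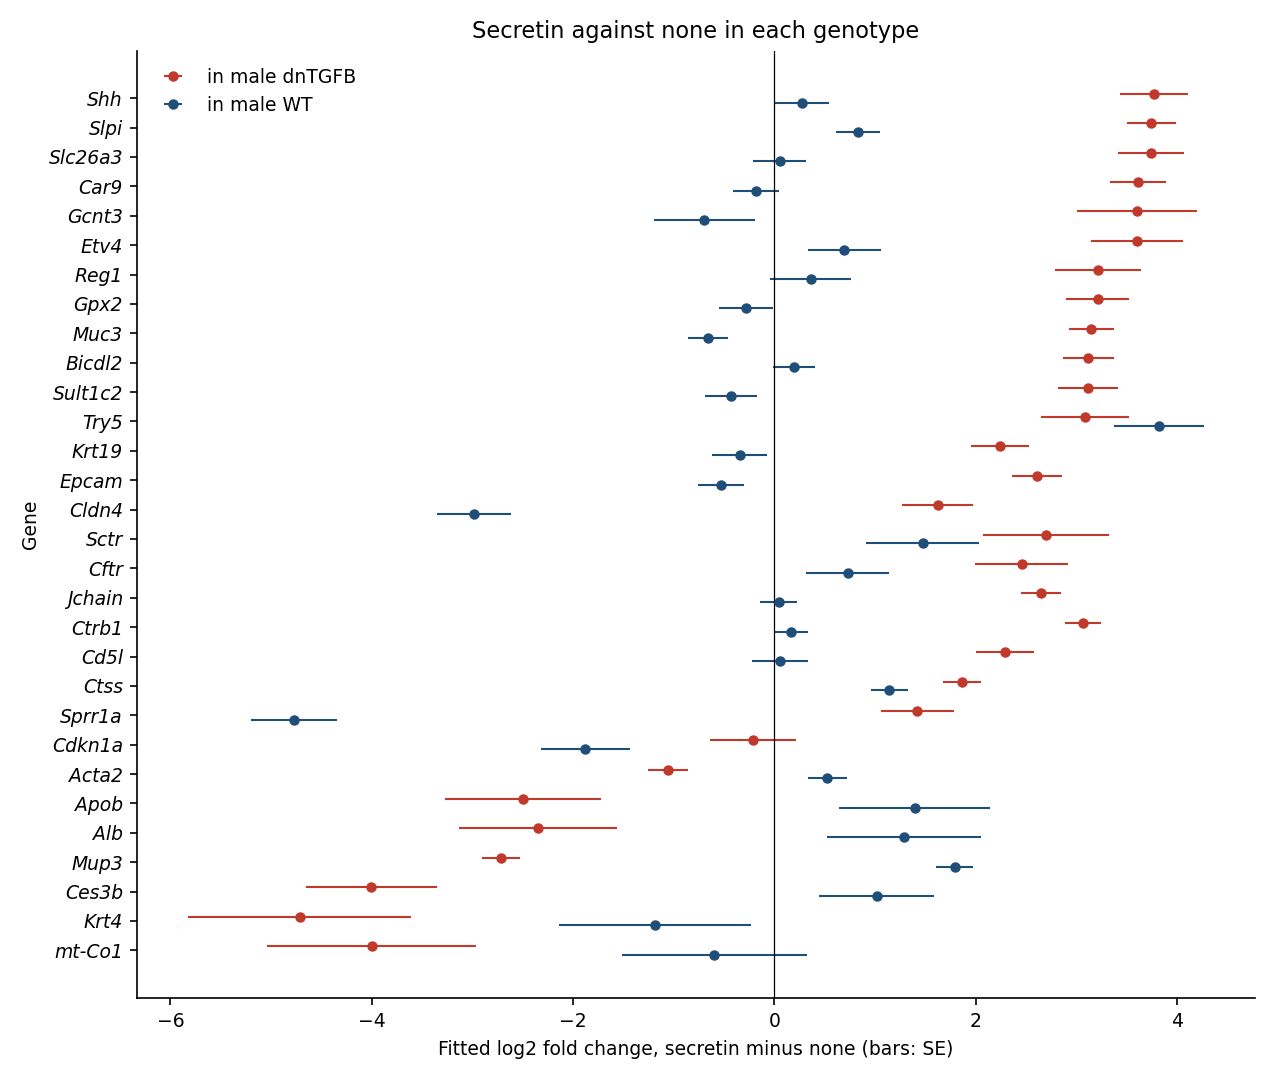
Fitted log2 difference between secretin and none for 30 genes, with SE bars, in male dnTGFB (red) and male WT (blue). Krt19 and Epcam lie right of 0 in dnTGFB (2.24 and 2.61) and slightly left in WT (-0.35 and -0.53), and Try5 lies right of 0 in both.

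In females the same contrast, dnTGFB secretin against dnTGFB, called 0 of 20222 genes by edgeR, with 5360 at an unadjusted p under 0.05. The difference between the sexes passed for 1568 genes (7.75%), 493 with a more positive effect in males (2.44%) and 1075 with a more negative one (5.32%), and the count fell to 1 to 3 when any male treated library was left out and to 3 and 5 without female dnTGFB library 1 or 2. It was 581 without female dnTGFB secretin library 1 and 3081 without female dnTGFB library 3. Slc26a3 gave 3.74 in males and -1.58 in females (difference 5.31, adjusted p 0.023). Krt19 (2.75, adjusted p 0.089) and Epcam (2.11, adjusted p 0.264) did not pass the test between sexes.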

How the data were processed

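Whole-number counts per gene for 49315 Ensembl mouse genes were deposited by the authors, 1 table per library. The aligner and the counter were not given in the sources used here. Whether counting used strand is unknown too, so a gene and an antisense partner over it cannot be separated. Of the identifiers 49056 are in GENCODE M21, which gave symbols, and 44858 have the same coordinates there, which makes the build GRCm38.

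Differences were tested with edgeR 4.0.16 (R 4.3.3) by the quasi-likelihood F test with TMM scaling, edgeR's expression filter, robust fitting and 1 mean per group over the 12 male libraries, and adjusted over all genes by Benjamini-Hochberg. A call is an adjusted p under 0.05. SE is the absolute log2 difference over the square root of F. The difference between sexes used all 24 libraries. On simulated counts for 18417 genes the fit recovered 92% and 96% of genes changed by -2 and 2 on the log2 scale. It recovered 10% and 28% of those changed by -1 and 1, and called 2 unchanged genes. These shares describe the simulated counts only. Whether they hold with libraries that stand apart from their own group, or for genes of few reads, was not tested.

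The members, the 48 gene lists and the tests were chosen with earlier results of these data known. Genes named are the 12 largest increases and decreases among 2552 protein-coding genes called with and without dnTGFB library 3, whose groups do not overlap and whose higher group averages 10 CPM or more, 9 genes always given, and up to 4 of each list described; gene models without a proper name and receptor gene segments were not eligible. Members named beyond these, and which of the 4 are printed, were chosen after their values were seen. Some members of the lists are not reported here by name. Alternatives used DESeq2 1.42.0, limma-voom (limma 3.58.1), other scalings, filters and sets of libraries.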

Additional observations from a re-analysis of the deposited data

Results flagged for a closer look

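The secretin effect differed between male dnTGFB and male WT, by the interaction term of the same fit, for 2931 genes. Among the genes named above these differences were 3.50 for Shh, 2.91 for Slpi, 3.69 for Slc26a3, 3.80 for Car9, 4.30 for Gcnt3, 2.90 for Etv4, 2.85 for Reg1, 3.50 for Gpx2, 3.81 for Muc3, 2.92 for Bicdl2, 3.55 for Sult1c2, 2.59 for Krt19 and 3.14 for Epcam. Negative differences were -6.95 for mt-Nd3, -4.39 for Psg21, -4.65 for mt-Nd4l, -3.62 for mt-Co3, -5.02 for Ces3b and -3.64 for Alb. Those among the largest increases and decreases were chosen by their change in dnTGFB, which is part of this term. Large differences were thus likely for them. The most extreme called differences at 10 CPM or more were -11.47 for A1bg, -6.88 for Calca and -5.61 for Cdh11, and 6.19 for Sprr1a, 4.83 for Cxcl10, 4.61 for Cldn4 and 4.52 for Arl14. A1bg stood at 6.86 to 12.81 CPM in the WT secretin libraries and at 0 to 4.39 CPM in the other male libraries, and Calca at 9.96 to 12.26 and 0 to 0.69 CPM, so their fitted values are no bounds. A1bg is higher in female than in male liver, and the WT secretin libraries, titled male, also held Xist at 35.14, 37.39 and 30.13 CPM. Cxcl10, a chemokine that attracts T cells, stood at 1049.71, 1083.03 and 200.27 CPM without and 1653.2, 1620.14 and 1603.25 CPM with secretin in dnTGFB, and at 1348.42, 1583.3 and 1563.87 against 109.75, 105.45 and 113.79 CPM in WT.

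The effect differed between male and female dnTGFB mice, by the interaction term over all 24 libraries, for 1568 genes. The differences were 5.31 for Slc26a3, 3.47 for Gpx2, 3.97 for Muc3, 3.96 for Sult1c2, 6.77 for Ly6i, 6.25 for Saa3 and 5.85 for Ms4a4a. They were -11.42 for Psg21, -10.26 for Tgm3, -10.45 for Krt4, -9.64 for Krt14, -9.65 for Krt5, -9.94 for Krt6b, -5.29 for Ces3b, -5.69 for Sct, -11.15 for Serpinb3a, -11.11 for Krtdap and -10.90 for Serpinb12. The female side of the squamous and placental values rests on 1 library: Krt4 stood at 903.91, 16.66 and 11.62 CPM and Psg21 at 172.39, 3.53 and 2.25 CPM in the female dnTGFB secretin libraries, and Sct at 6.85, 0.28 and 0.35 CPM. The most negative fitted values come from groups near 0 and are no bounds. Genes from the largest increases and decreases were chosen by their change in male dnTGFB, which is part of this term too.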

How the results depend on the processing

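Of 4237 calls, leaving out 1 library left 1048 to 7247: 1048, 1064 and 1196 without treated library 1, 2 or 3, and 7247 without untreated library 3. The count was 8929 without dnTGFB library 3 and WT library 1, 506 with only the 6 libraries, 8596 with these 6 less dnTGFB library 3, 6741 by limma-voom with sample quality weights and 7526 with library totals. The other counts stayed within 1.5 times, among them 6209 by DESeq2, 3206 without a filter and 2869 with a replicate block. The cause of these changes was not tested.

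With library totals the median of all genes moved by 0.79, from -0.05 to 0.75, and 6689 calls were higher and 837 lower, against 1900 and 2337. Relative to that shift the biliary median was 2.10, the hepatocyte median -1.84, the mitochondrial median -3.64 and the T cell median -1.10. The split of calls also moved with only the 6 libraries (299 higher, 207 lower) and with a treated library left out (727 and 321, 742 and 322, 809 and 387).

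For the difference between genotypes, 2931, leaving out 1 library gave 1149 to 7324, leaving out both libraries that stand apart 9380, DESeq2 5397 and the replicate block 1970. For the difference between sexes, 1568, leaving out 1 library gave 1 to 3081, DESeq2 3030, library totals 1 and the replicate block 629. Same-numbered libraries deviated together with r of 0.062, -0.038 and 0.048, and differently numbered ones with r of -0.085 to 0.077. Untreated library 3, far from its own group, weighs heavily in these deviations. They therefore cannot show whether the numbers pair the samples.

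Among the 24 largest changes no direction reversed in 424 refits, and 34 lost their call: 6 with only the 6 libraries, 8, 9 and 9 without treated library 1, 2 or 3, and 2 without a filter. The rule that chose these 24 genes required a call with and without library 3 and no overlap of the groups. A reversal was thus unlikely from the start, and its absence is no separate check. Tgfbr2 ran from -0.134 to 0.485 with 1 library left out, reversing to -0.134 without library 3, -0.14 without 2 libraries, -0.14 with 5 libraries and -0.11 by voom with quality weights. Cdkn1a ran from -0.643 to 0.12 with 1 library left out, reversing to 0.12 and 0.054 without untreated library 1 or 2, 0.042 by limma-voom and 0.78 with library totals. Untreated library 3, with 1429218 counts, holds 1 read at about 0.59 CPM, which limits genes of a few CPM.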
